A study of Mus musculus with 7 samples.

Results

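The genes described here are p53, its regulators and its target genes, 32 in all, chosen by symbol from general knowledge of the pathway. They were chosen with earlier results of these data known. Of these, 27 had a probe set of their own among the 22180 genes tested. No probe set of Trp53, Bax or Gdf15 was analysed here, and Gadd45a and Ddb2 were annotated only to probe sets shared with another gene, so these 5 have no value. The level of p53's own transcript is therefore not part of what follows. RNA came from C2C12 cells, an established mouse line of dividing skeletal myoblasts, in 3 groups. The siG9a group (3 arrays) received an siRNA against G9a, the siGLP group (2 arrays) an siRNA against GLP, and the Control group (2 arrays) a control siRNA. All cells were grown in serum-rich medium, and the knockdowns were transient and made in this 1 line. Ehmt2 encodes G9a and Ehmt1 encodes GLP, paired histone methyltransferases whose substrate is lysine 9 of histone H3, and the study asked whether they act differently in myoblasts.

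p53 is a transcription factor that is kept scarce in unstressed cells because the ubiquitin ligase Mdm2 marks it for destruction. After DNA damage or other stress it accumulates, binds its response elements and switches on genes that stop the cell cycle, dampen growth signals, repair DNA or start apoptosis. Mdm2 is itself one of these targets, which closes a feedback loop. In muscle precursors the pathway is known for linking DNA damage to a pause in proliferation and differentiation.

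A p53 response element consists of a pair of half-sites of 10 bases, and matches to the p53 half-site consensus, which reads the same on both strands, were looked for in RefSeq promoter windows (GRCm38.p6, 250 bases before to 50 after a transcription start). Windows were found for 24 of the 32 genes. At least 1 half-site lay in the windows of 9 of these 24 genes (37.5%), against 9.55% of all 27025 genes with a window. A pair of half-sites with at most 13 bases between them occurred in none of the 24, and in 0.074% of all genes. The letters CATG, a common core of p53 half-sites that none of the stretches shown here has within its half-site, were present in 29.0% of the 31 windows of these genes and in 61.1% of all 32851 windows, whose median GC content was 63.3% and 52.7% in the same order. These genes were listed as p53 targets, so the share with a half-site is a description of the list. A match is not a shown binding site, and elements in introns or further upstream were not searched. The stretches around the half-site are shown for the 6 measured genes that hold one, on each gene's strand, and capitals mark the half-site. They lie at chr10:117710910-117710969 (minus strand, Mdm2), chr11:40755437-40755496 (minus strand, Ccng1), chr11:85311097-85311156 (plus strand, Ppm1d), chr10:41887241-41887300 (plus strand, Sesn1), chr7:78895912-78895971 (plus strand, Aen) and chr13:96519384-96519437 (minus strand, Polk).
Mdm2: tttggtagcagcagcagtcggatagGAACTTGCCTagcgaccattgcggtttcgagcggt
Ccng1: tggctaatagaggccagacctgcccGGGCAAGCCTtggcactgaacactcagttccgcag
Ppm1d: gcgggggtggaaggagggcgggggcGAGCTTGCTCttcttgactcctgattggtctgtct
Sesn1: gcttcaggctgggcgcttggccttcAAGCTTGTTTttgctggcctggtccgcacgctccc
Aen: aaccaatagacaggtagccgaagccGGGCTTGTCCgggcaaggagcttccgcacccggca
Polk: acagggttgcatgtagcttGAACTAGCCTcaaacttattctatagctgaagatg

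Values are log2 signals per array, so a difference of 1 is a doubling, and levels of different genes cannot be compared because each has its own probes. Ehmt2 averaged 6.15 in siG9a and 7.51 in Control, and Ehmt1 averaged 5.93 in siGLP and 6.72 in Control, so each targeted transcript was lower in its own knockdown. Of the targeted genes, Ehmt2 passed in siG9a (limma, Benjamini-Hochberg adjusted p = 0.0308) and Ehmt1 did not pass in siGLP (adjusted p = 0.197). Without any 1 array Ehmt2 no longer passed in siG9a, while its siG9a minus Control difference stayed at -1.29 to -1.45. Its limma adjusted p was 0.0787 to 0.190 without 1 siG9a array. All 8 myoblast markers examined lay above the array medians, which were 4.54 to 4.59, while 1 of 5 leukocyte, 0 of 4 endothelial and 1 of 3 adipocyte markers did. Of 5 markers of differentiated muscle, 4 lay above the array medians. Nothing in the labels says that the arrays of a group came from separate cultures, and p-values therefore reflect array-to-array spread, which could be technical. A gene passed when its limma p, Benjamini-Hochberg adjusted over all 22180 genes, was under 0.05. The number of arrays limits the precision of every value.

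No p53 pathway gene passed in any comparison. Of all genes, 0.0271% passed in siG9a against Control, 0.00451% in siGLP against Control and 0.234% in siGLP against siG9a. At an unadjusted limma p under 0.05 there were 3, 6 and 5 p53 genes in these comparisons, described further on. The measured p53 genes lay mostly above Control in both knockdowns, by small amounts, and bulk RNA cannot tell a change in all cells from a change in some of them. In siG9a 20 of 27 lay above Control, with a median log2 difference of 0.070, while 51.9% of all genes lay above Control, with a median of 0.0052. In siGLP 20 of 27 lay above Control as well, with a median of 0.062, against 50.6% and 0.0015 for all genes. Both knockdowns were set against the same 2 Control arrays, so these values are not independent of each other. The median of the 27 genes' deviations from the Control mean was 0.084, 0.040 and 0.011 in the 3 siG9a arrays and 0.096 and 0.081 in the 2 siGLP arrays. The siG9a arrays thus differed among themselves, with siG9a 1 highest and siG9a 3 near the Control arrays, and without siG9a 1 the siG9a median was 0.016. Without Control 2 the siG9a median was 0.030, and the siGLP median was 0.098 without Control 1, 0.081 without siGLP 1 and 0.096 without siGLP 2.

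**Figure D1:**
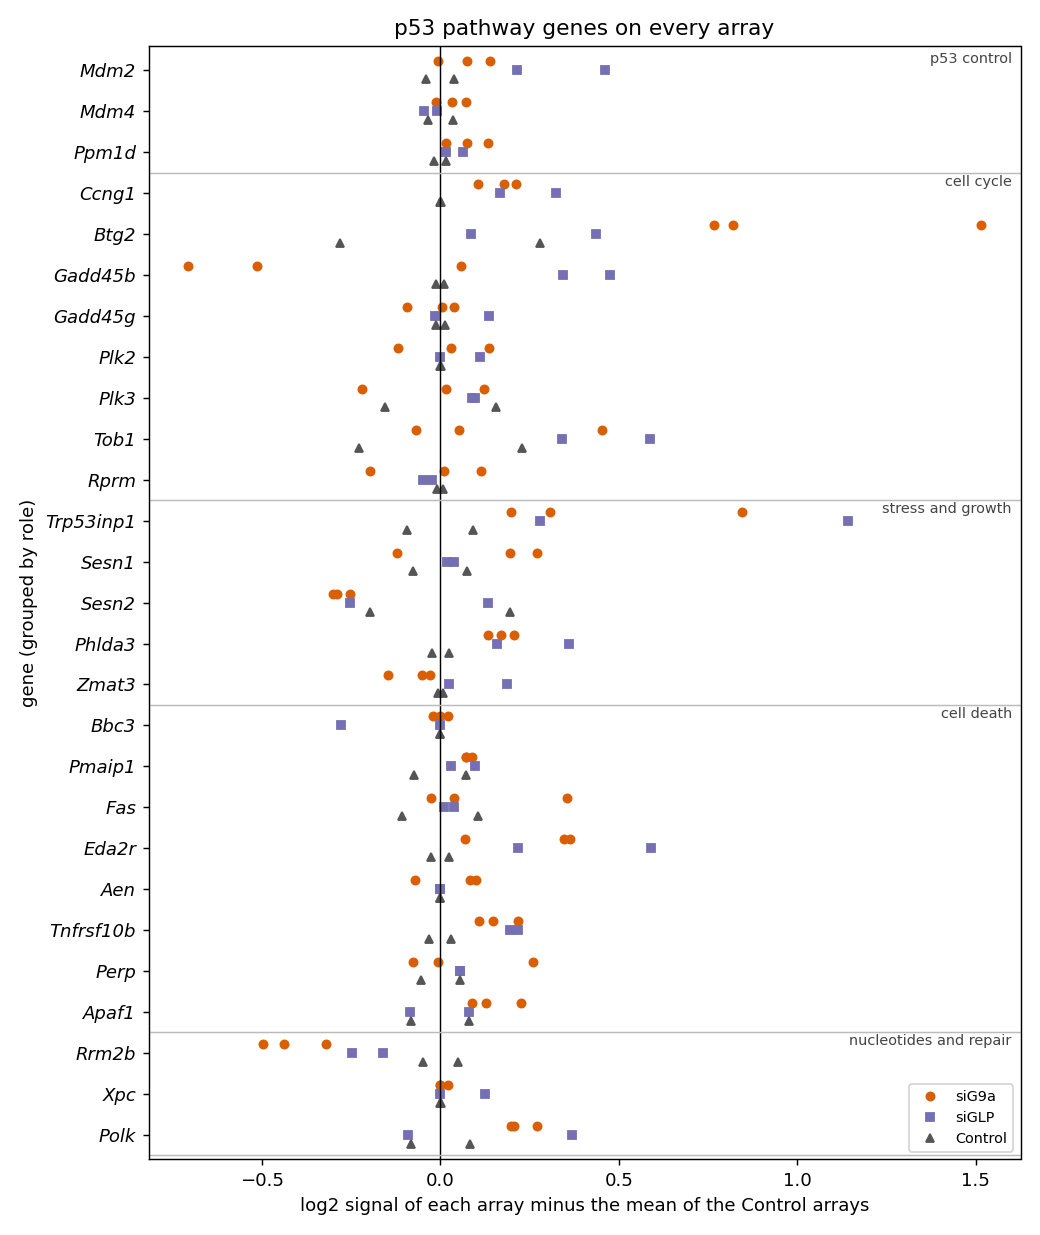
Log2 signal of each array minus the mean of the 2 Control arrays (horizontal axis) for the 27 measured p53 pathway genes (rows, grouped by role); circles are siG9a arrays, squares siGLP arrays and triangles Control arrays. Btg2 is farthest to the right in siG9a, Trp53inp1 has 1 siGLP array far to the right, Rrm2b lies to the left in both knockdowns, and most other points lie near the Control arrays.

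The genes that restrain p53 came first. Mdm2, the ligase that degrades p53, had log2 signals of 9.18, 9.10 and 9.24 in siG9a, 9.56 and 9.32 in siGLP, and 9.14 and 9.06 in Control. Both siGLP arrays were above every other array, while the siG9a arrays overlapped Control. The siGLP minus Control difference of Mdm2 was 0.34, a 1.26-fold higher signal (SE 0.10, 95% interval 0.10 to 0.58), with an unadjusted p of 0.0125 and a limma adjusted p of 0.405, and it was the smallest p of the list in that comparison. In siG9a the Mdm2 difference was 0.070 (95% interval -0.15 to 0.29; limma adjusted p = 0.826). Mdm4, the relative of Mdm2 that binds and blocks p53, had 8.97, 8.93 and 8.89 in siG9a, 8.89 and 8.85 in siGLP, and 8.94 and 8.87 in Control. The arrays of Mdm4 overlapped between all groups, with differences of 0.032 (95% interval -0.12 to 0.18) in siG9a and -0.027 (-0.19 to 0.14) in siGLP, whose signs turned without Control 2 in siG9a (-0.0034) and without Control 1 in siGLP (0.0081). Ppm1d, a phosphatase that switches off DNA damage signalling, averaged 7.19 ± 0.059 (SD, n = 3) in siG9a, 7.16 ± 0.034 (n = 2) in siGLP and 7.12 ± 0.023 (n = 2) in Control.

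Among the cell cycle genes, Ccng1 and Btg2 stood above Control in siG9a. Ccng1, cyclin G1, which helps to activate Mdm2, had 11.26, 11.16 and 11.23 in siG9a, 11.38 and 11.22 in siGLP, and 11.05 and 11.05 in Control. Every knockdown array of Ccng1 was above both Control arrays, which were nearly equal. Its difference was 0.17 in siG9a (95% interval -0.0070 to 0.34; unadjusted p = 0.0576, limma adjusted p = 0.493) and 0.25 in siGLP (0.057 to 0.44; unadjusted p = 0.0182, limma adjusted p = 0.441).

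Btg2, an antiproliferative protein that promotes removal of mRNA poly(A) tails, had 8.54, 7.80 and 7.85 in siG9a, 7.47 and 7.12 in siGLP, and 7.31 and 6.75 in Control. The siG9a arrays lay above all others, with siG9a 1 far above the rest, whereas the siGLP arrays overlapped Control. The siG9a minus Control difference of 1.03 was the largest of the list in either knockdown, a 2.05-fold higher signal (SE 0.27, 95% interval 0.40 to 1.67), with an unadjusted p of 0.0064 and a limma adjusted p of 0.248. It was 0.79 without siG9a 1, 0.75 without Control 2 and 1.31 without Control 1. In siGLP the Btg2 difference was 0.26 (95% interval -0.43 to 0.96). Tob1, of the same protein family, averaged 6.91 ± 0.27 (SD, n = 3) in siG9a, 7.23 ± 0.17 (n = 2) in siGLP and 6.76 ± 0.32 (n = 2) in Control. Its siGLP arrays were both above Control, by 0.46 on average (95% interval -0.038 to 0.97), and its siG9a arrays overlapped Control.

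The Gadd45 proteins are stress sensors that act on MAP kinases and cell cycle kinases. Gadd45b had 7.58, 6.81 and 7.01 in siG9a, 7.99 and 7.86 in siGLP, and 7.53 and 7.51 in Control. Both siGLP arrays were above Control (difference 0.41, 95% interval -0.12 to 0.95), while siG9a 2 and siG9a 3 were below it and siG9a 1 slightly above it (-0.39, 95% interval -0.87 to 0.10). Gadd45g differed by -0.016 in siG9a and 0.060 in siGLP, with overlapping arrays. The kinase genes Plk2 and Plk3, whose products act in stress checkpoints, and Rprm, a membrane-linked mediator of arrest before mitosis, had differences from -0.035 to 0.093 over both knockdowns. The smallest limma adjusted p of Plk2, Plk3 and Rprm against Control was 0.902, for Plk3 in siGLP.

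**Figure D2:**
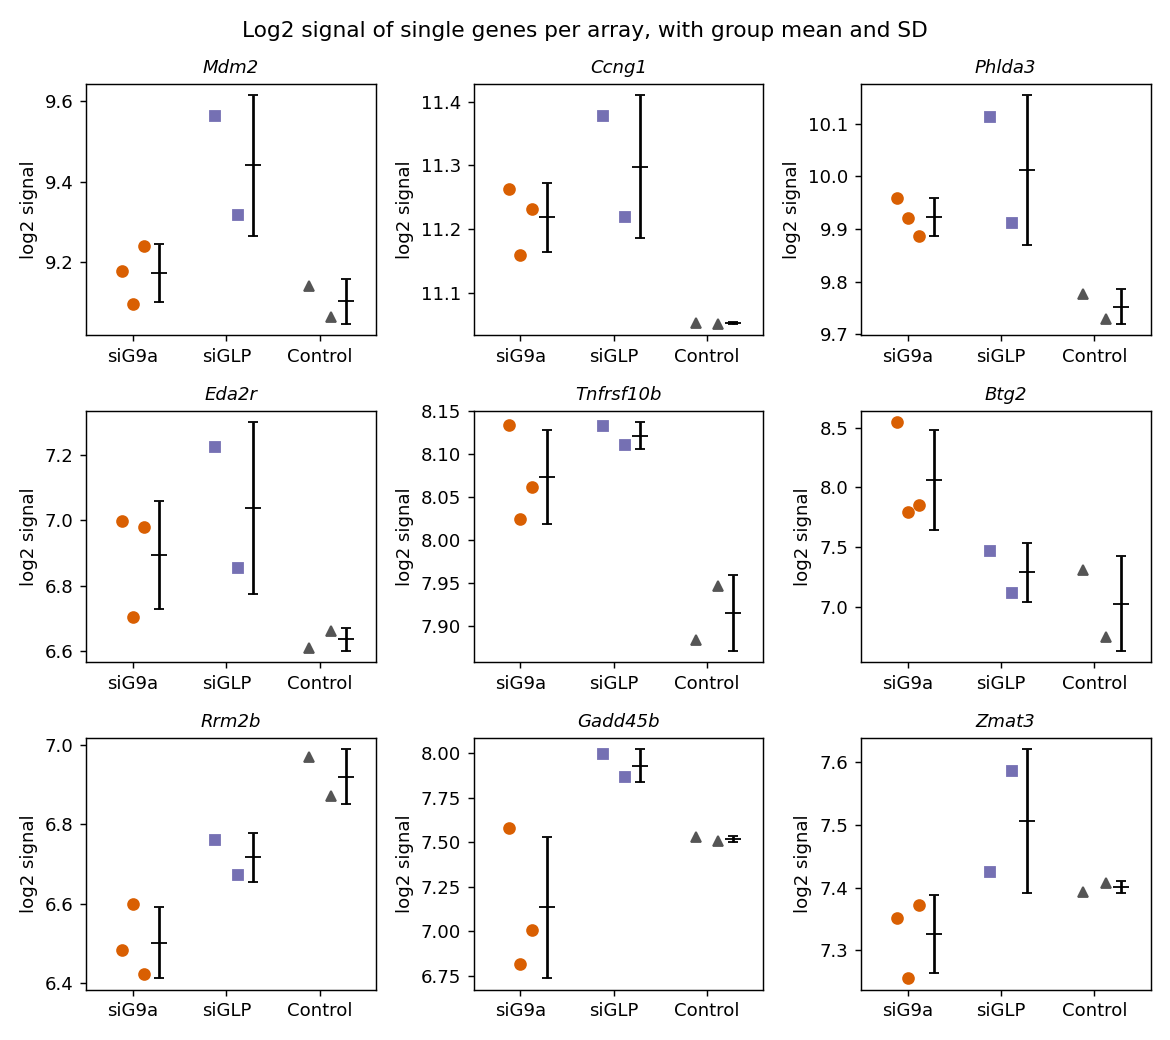
Log2 signal (vertical axis, scaled separately for each gene and not starting at 0) of 9 genes on each array by group, with the group mean and SD as a bar beside the points. Mdm2 is highest in siGLP, Btg2 is highest in siG9a, Rrm2b is highest in Control, and Ccng1, Phlda3, Eda2r and Tnfrsf10b have every knockdown array above both Control arrays.

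Genes of stress and growth control gave Phlda3 and Trp53inp1 above Control in both knockdowns and Sesn2 below Control in siG9a. Phlda3, which keeps the kinase Akt off the membrane, had 9.96, 9.92 and 9.89 in siG9a, 10.11 and 9.91 in siGLP, and 9.78 and 9.73 in Control. All 5 knockdown arrays of Phlda3 were above both Control arrays. Its differences were 0.17 in siG9a (95% interval -0.014 to 0.35; limma adjusted p = 0.509) and 0.26 in siGLP (0.058 to 0.46; unadjusted p = 0.0187, limma adjusted p = 0.442), and the siGLP value was 0.16 without siGLP 1 and 0.36 without siGLP 2. Trp53inp1, a nuclear stress protein that also takes part in autophagy, averaged 6.88 ± 0.35 (SD, n = 3) in siG9a, 7.14 ± 0.61 (n = 2) in siGLP and 6.43 ± 0.13 (n = 2) in Control. The siGLP difference of Trp53inp1, 0.71 (95% interval -0.019 to 1.44; limma adjusted p = 0.594), was the largest of the list in siGLP, and its 2 siGLP arrays, 7.57 and 6.71, were far apart. In siG9a it was 0.45 (95% interval -0.22 to 1.12).

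The sestrins restrain the growth kinase mTORC1. Sesn2 averaged 7.57 ± 0.025 (SD, n = 3) in siG9a, 7.79 ± 0.27 (n = 2) in siGLP and 7.85 ± 0.28 (n = 2) in Control. The siG9a arrays of Sesn2 were below both Control arrays (difference -0.28, 95% interval -0.63 to 0.068), and the siGLP arrays overlapped them. Sesn1 differed by 0.12 in siG9a and 0.028 in siGLP, with overlapping arrays. Zmat3, an RNA-binding zinc finger protein, had 7.35, 7.26 and 7.37 in siG9a, 7.42 and 7.59 in siGLP, and 7.39 and 7.41 in Control. Its siG9a arrays lay just below and its siGLP arrays just above Control, with differences of -0.075 (95% interval -0.25 to 0.10) and 0.10 (-0.090 to 0.30).

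Among the cell death genes, the 2 receptors Eda2r and Tnfrsf10b stood apart from the apoptosis effectors. Eda2r, the receptor of ectodysplasin A2, had 6.999, 6.70 and 6.98 in siG9a, 7.22 and 6.85 in siGLP, and 6.61 and 6.66 in Control. Every knockdown array was above both Control arrays, though siG9a 2 only narrowly. The Eda2r difference was 0.26 in siG9a (95% interval -0.061 to 0.58; limma adjusted p = 0.568) and 0.40 in siGLP, a 1.32-fold higher signal (0.053 to 0.76; unadjusted p = 0.0299, limma adjusted p = 0.513). The siGLP difference of Eda2r was 0.22 without siGLP 1 and 0.59 without siGLP 2. Tnfrsf10b, the mouse receptor of the death ligand TRAIL, had 8.13, 8.02 and 8.06 in siG9a, 8.13 and 8.11 in siGLP, and 7.88 and 7.95 in Control. Its knockdown arrays were also all above Control, by 0.16 in siG9a (unadjusted p = 0.0436, limma adjusted p = 0.457) and 0.21 in siGLP (unadjusted p = 0.0223, limma adjusted p = 0.468). The third receptor, Fas, overlapped Control in both knockdowns, at 0.12 in siG9a and 0.026 in siGLP.

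The intrinsic apoptosis genes showed no such separation, except Apaf1 in siG9a. Apaf1, the scaffold of the apoptosome, had 7.28, 7.14 and 7.18 in siG9a, 6.97 and 7.13 in siGLP, and 6.97 and 7.13 in Control. The siG9a arrays were above both Control arrays, siG9a 2 by less than 0.01, and the difference was 0.15 (95% interval -0.058 to 0.35). In siGLP the difference of Apaf1 was -0.0018 (95% interval -0.23 to 0.22). Bbc3 and Pmaip1, which encode the BH3-only killers PUMA and NOXA, differed by 0.00042 and 0.079 in siG9a and by -0.14 and 0.063 in siGLP. Aen, an apoptosis-enhancing nuclease, and Perp, a membrane protein of desmosomes and apoptosis, differed by at most 0.059 from Control, with overlapping arrays. Bbc3, Pmaip1, Fas, Perp and Rprm averaged below 5, near the array medians, and whether these 5 exceed background is not known. Bbc3, Aen and Xpc had 1 value repeated on 4 arrays and Perp on 3, as did 21.4% of all genes on 3 or more arrays, which makes their spread between arrays look small.

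Rrm2b, the p53-inducible subunit of ribonucleotide reductase that supplies deoxynucleotides for repair, stood out in the opposite direction. Its log2 signal was 6.48, 6.60 and 6.42 in siG9a, 6.76 and 6.67 in siGLP, and 6.97 and 6.87 in Control. The 3 groups did not overlap, with siG9a lowest and Control highest. The siG9a minus Control difference of -0.42, a 1.34-fold lower signal (SE 0.078, 95% interval -0.60 to -0.23), had the smallest p of the list in that comparison, with an unadjusted p of 0.0011 and a limma adjusted p of 0.149. In siGLP Rrm2b differed by -0.20 (95% interval -0.41 to -0.00054; unadjusted p = 0.0495, limma adjusted p = 0.578). Polk, a DNA polymerase that copies past damaged bases, averaged 8.25 ± 0.040 (SD, n = 3) in siG9a, 8.17 ± 0.32 (n = 2) in siGLP and 8.03 ± 0.12 (n = 2) in Control, with the siG9a arrays all above Control and the siGLP arrays overlapping it. Xpc, which recognises damage for nucleotide excision repair, differed by 0.0068 in siG9a and 0.062 in siGLP.

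**Figure D3:**
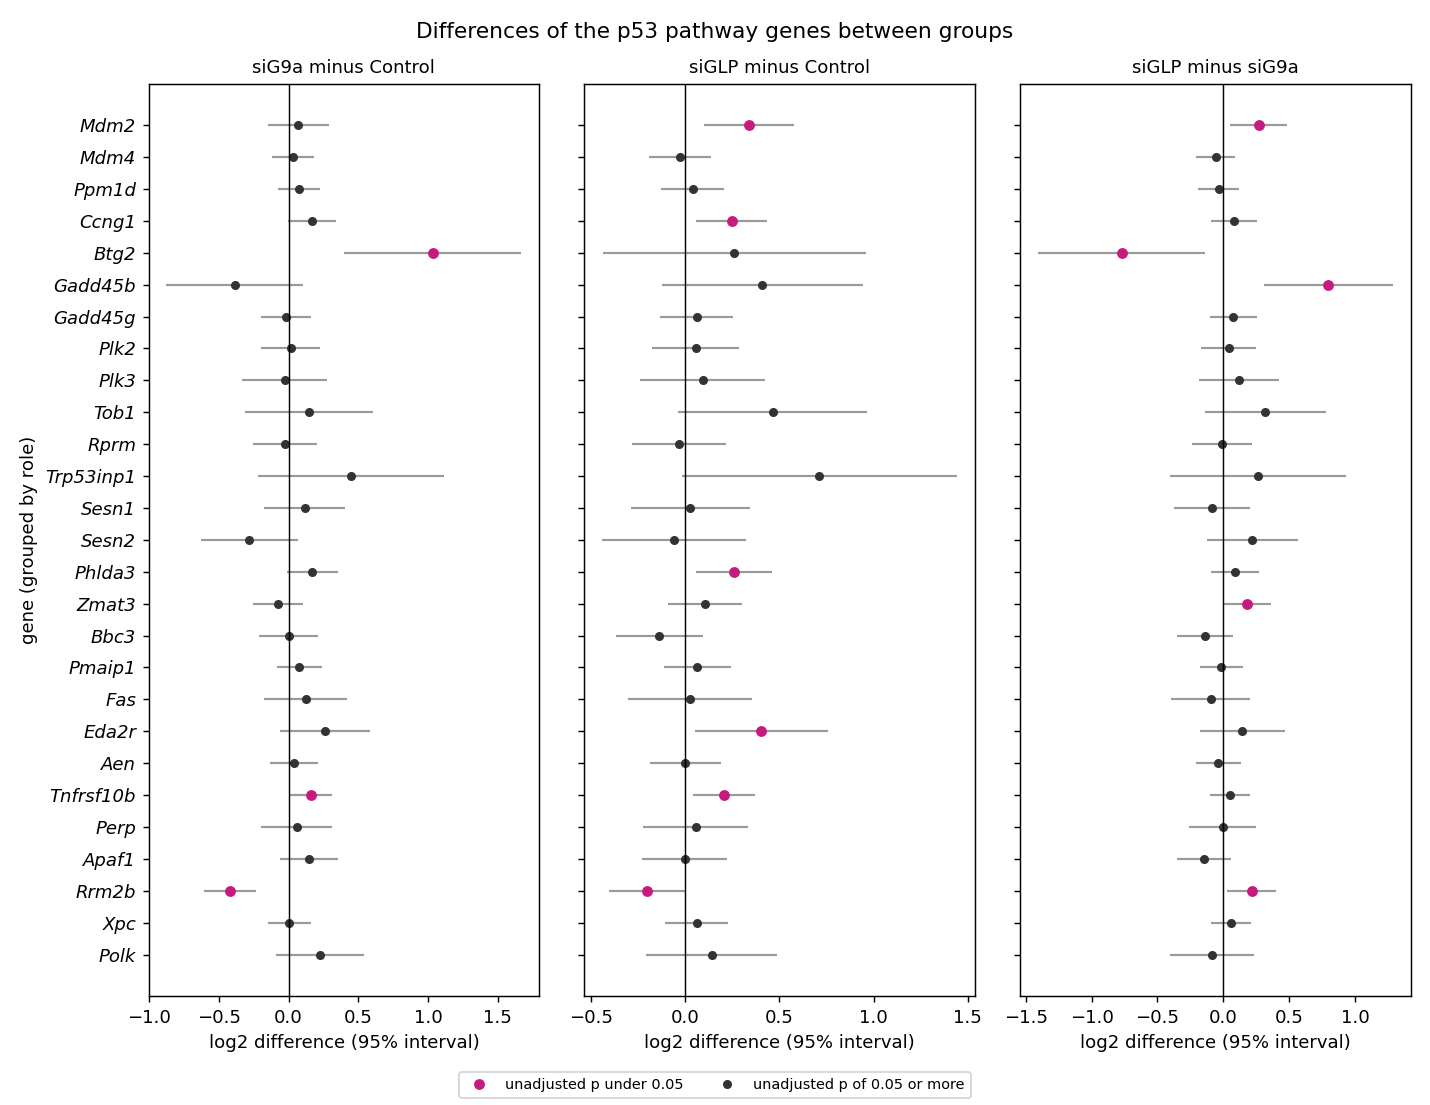
Log2 differences (horizontal axis) of the 27 p53 pathway genes in the 3 comparisons, siG9a minus Control at the left and siGLP minus siG9a at the right, as points with 95% intervals from the limma fit; pink points have an unadjusted p under 0.05. In siG9a these are Btg2, Tnfrsf10b and Rrm2b, in siGLP Mdm2, Ccng1, Phlda3, Eda2r, Tnfrsf10b and Rrm2b, and between the knockdowns Mdm2, Btg2, Gadd45b, Zmat3 and Rrm2b.

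Counted without adjustment, the siG9a comparison held few p53 genes. An unadjusted limma p under 0.05 was reached in siG9a by 2 higher genes (Btg2 and Tnfrsf10b; 7.41% of the 27, against 5.95% of all genes higher) and 1 lower gene (Rrm2b; 3.70%, against 4.57% of all genes lower). These shares were close to those of all genes. The count of 3 was 6 with only siG9a and Control fitted, so that siGLP arrays gave no part of the spread estimate. The share of all genes under that fit was not counted, so the 6 cannot be set beside a background. By another measure, 9 of 27 genes had all siG9a arrays above both Control arrays (33.3%, against 14% of all genes) and 3, Rrm2b, Sesn2 and Zmat3, had them below (11.1%, against 11.7%). The 9 were Ppm1d, Ccng1, Btg2, Trp53inp1, Phlda3, Eda2r, Tnfrsf10b, Apaf1 and Polk, of which Ppm1d was separated by less than 0.001 (siG9a 2 at 7.1333 and Control 2 at 7.1330).

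The siGLP comparison held more, all but 1 of them higher. An unadjusted limma p under 0.05 was reached in siGLP by 5 higher genes (Mdm2, Ccng1, Phlda3, Tnfrsf10b and Eda2r; 18.5% of the 27, against 4.51% of all genes higher) and 1 lower gene (Rrm2b; 3.70%, against 4.13% of all genes lower). Of the 27 genes, 22 lay at or above the median gene level. The shares of all genes, here and in the other comparisons, were not matched for level. Those at an unadjusted limma p under 0.05 were counted only under the main fit of all 7 arrays. The count of 6 was 1 without Control 2, 1 without siGLP 1 and 3 without Control 1. Of the siGLP arrays, siGLP 1 was the higher one in all 5 of the higher genes, though only slightly in Tnfrsf10b (8.13 against 8.11). The Mdm2 difference was 0.21 without siGLP 1 and 0.46 without siGLP 2. In 9 of 27 genes both siGLP arrays were above both Control arrays (33.3%, against 17.4% of all genes), and in Rrm2b and Rprm, 2 of 27, they were below (7.41%, against 16.9%). The 9 were Mdm2, Ccng1, Gadd45b, Tob1, Trp53inp1, Phlda3, Zmat3, Eda2r and Tnfrsf10b.

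**Figure D4:**
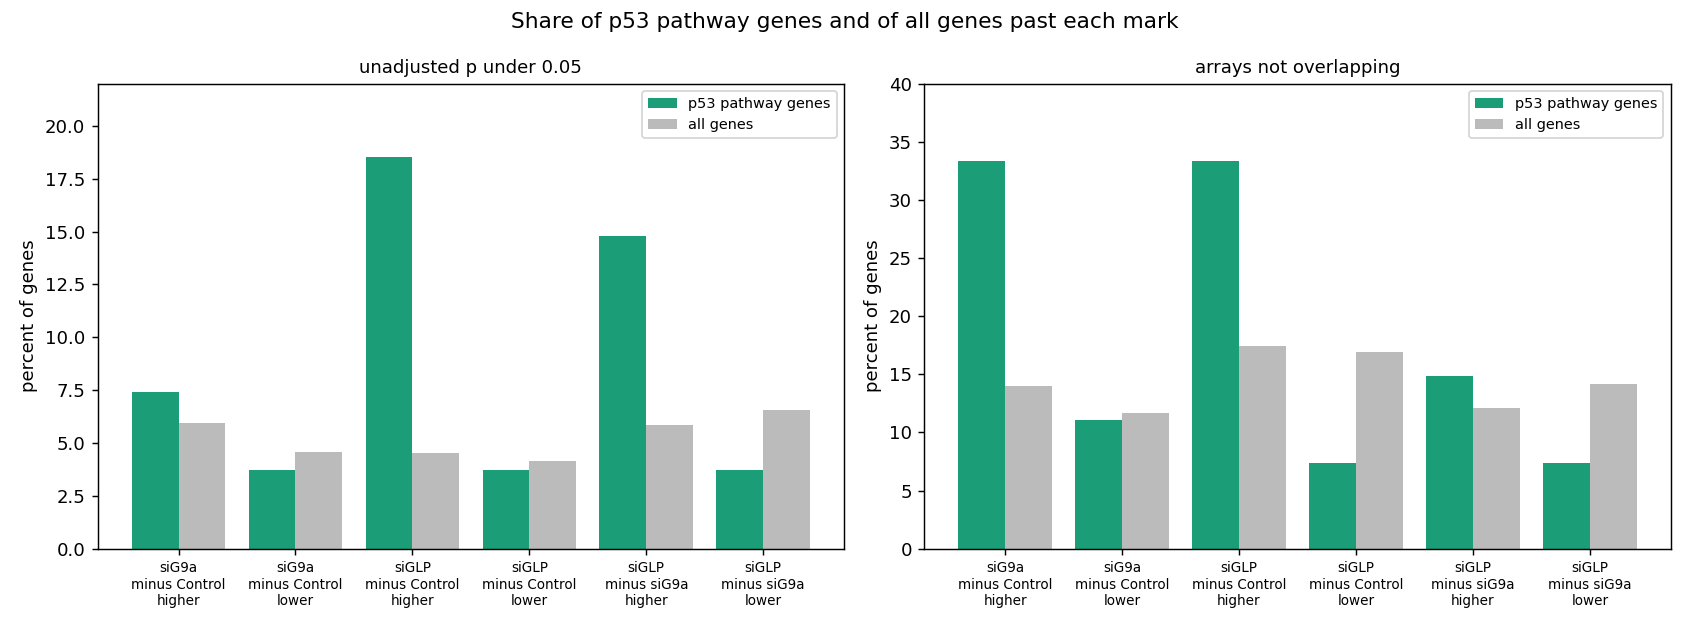
Percent of genes (vertical axis, from 0) with an unadjusted limma p under 0.05 (left) or with arrays that do not overlap between the groups (right), higher or lower in each comparison; green bars are the 27 p53 pathway genes and grey bars all 22180 genes. The green bar for higher genes in siGLP minus Control is at 18.5% on the left, beside 4.51% for all genes.

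The direct comparison of siGLP with siG9a asks whether the 2 knockdowns differ in this pathway, and it does not use the Control arrays except for the estimate of spread. Gadd45b had the smallest p, with siGLP arrays at 7.99 and 7.86 and siG9a arrays at 7.58, 6.81 and 7.01. The siGLP arrays were all higher, and the siGLP minus siG9a difference of Gadd45b was 0.80, a 1.74-fold higher signal in siGLP (SE 0.21, 95% interval 0.31 to 1.29; unadjusted p = 0.0063, limma adjusted p = 0.192). Btg2 went the other way, with siGLP arrays at 7.47 and 7.12 and siG9a arrays at 8.54, 7.80 and 7.85, and its difference was -0.77 (SE 0.27, 95% interval -1.41 to -0.14; unadjusted p = 0.0239, limma adjusted p = 0.312). The arrays of Btg2 did not overlap between the knockdowns.

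Mdm2 was higher in siGLP than in siG9a by 0.27 (SE 0.092, 95% interval 0.050 to 0.49; unadjusted p = 0.0229, limma adjusted p = 0.309), and this was 0.14 without siGLP 1. Rrm2b was higher in siGLP by 0.21 (95% interval 0.030 to 0.40; limma adjusted p = 0.336) and Zmat3 by 0.18 (0.0011 to 0.36; limma adjusted p = 0.398; 0.098 without siGLP 2). Apaf1 was lower in siGLP by 0.15 on the log2 scale, with an interval across 0 (-0.36 to 0.056), and the difference was -0.067 without siGLP 1 and -0.23 without siGLP 2. For Ccng1, Phlda3, Eda2r and Tnfrsf10b, which were above Control in both knockdowns, the siGLP minus siG9a differences were 0.080 (95% interval -0.093 to 0.25), 0.090 (-0.094 to 0.27), 0.14 (-0.18 to 0.46) and 0.048 (-0.10 to 0.20), with overlapping arrays. These intervals do not show that the knockdowns act alike on them.

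Between the knockdowns 4 genes were higher at an unadjusted limma p under 0.05 (14.8% of 27, against 5.87% of all genes) and 1 was lower (3.70%, against 6.57%). The count of 5 was 3 without siG9a 2. The arrays did not overlap in 4 higher genes (14.8%, against 12.1% of all genes) and 2 lower genes (7.41%, against 14.2%). The median siGLP minus siG9a difference of the 27 was 0.048, against -0.0037 for all genes, and without siGLP 1 it was -0.013.

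Other genes of the pathway were read from a pair of further lists. Among 37 measured genes listed as regulators of p53, 0 passed in any comparison. The list holds kinases, ligases, acetyltransferases and p53 relatives, but also other genes such as Trp53inp2 and Nqo1, and a listing is not a shown action on p53. At an unadjusted limma p under 0.05, 4 were higher and 1 lower in siG9a (10.8% and 2.70% of the 37, against 5.95% and 4.57% of all genes). In siGLP 1 was higher and 1 lower (2.70% each, against 4.51% and 4.13%), and between siGLP and siG9a 3 were higher and 7 lower (8.11% and 18.9%, against 5.87% and 6.57%). Trp53inp2, a nuclear protein related to Trp53inp1 that acts in autophagy, stood at 0.72 in siG9a (SE 0.097; limma adjusted p = 0.102) and differed by -0.61 between siGLP and siG9a (limma adjusted p = 0.0763). Chek2, the checkpoint kinase that phosphorylates p53 after DNA breaks, lay below Control in both knockdowns, at -0.22 in siG9a and -0.30 in siGLP (limma adjusted p = 0.353 and 0.351). In siG9a the ligase gene Rchy1 stood at 0.26 (limma adjusted p = 0.353), and in siGLP the quinone reductase gene Nqo1 stood at 0.40 (limma adjusted p = 0.507).

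Among 66 measured further p53 targets, 0 passed in siG9a, 1 (1.52%) passed in siGLP and 2 (3.03%) passed between the knockdowns. The shares of all genes were 0.0271%, 0.00451% and 0.234% in the same order. This list was chosen with earlier results of these data known, so its passing genes and shares only describe it. The one that passed in siGLP was Ei24, a p53-induced gene of the endoplasmic reticulum, with log2 signals of 9.13, 8.95 and 9.02 in siG9a, 7.62 and 7.69 in siGLP, and 9.08 and 9.02 in Control. Ei24 fell by 1.39 in siGLP on the log2 scale (limma adjusted p = 0.014), the opposite direction to Mdm2, Ccng1 and Phlda3. The siGLP minus Control difference of Ei24 stayed at -1.36 to -1.42 without any 1 array. The Ei24 call held without siG9a 1 (limma adjusted p = 0.0397) and was lost without each of the other 6 arrays in turn. Its limma adjusted p was 0.0638 without siG9a 2 and 0.129 without siG9a 3. Between the knockdowns Ei24 was lower in siGLP (-1.38; limma adjusted p = 0.0082), and Casp6, an executioner caspase, was higher in siGLP than in siG9a (0.54; limma adjusted p = 0.047). Without any 1 array neither gene passed between the knockdowns, while the differences stayed at -1.33 to -1.42 for Ei24 and 0.50 to 0.58 for Casp6. Without 1 siG9a array the limma adjusted p was 0.0513 to 0.0945 for Ei24 and 0.113 to 0.184 for Casp6. At an unadjusted limma p under 0.05, 7 of the 66 were higher and 5 lower in siG9a (10.6% and 7.58%), and 9 were higher and 8 lower in siGLP (13.6% and 12.1%), where the shares of all genes were 5.95% and 4.57% in siG9a and 4.51% and 4.13% in siGLP. The median difference of the 66 was -0.012 in siG9a and 0.053 in siGLP.

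Cdkn1a, which encodes the CDK inhibitor p21 and is the classical arrest target of p53, had 11.64, 11.58 and 11.64 in siG9a, 11.60 and 11.48 in siGLP, and 11.34 and 11.26 in Control. All 5 knockdown arrays of Cdkn1a were above both Control arrays. Its difference was 0.33 in siG9a (95% interval 0.16 to 0.49; limma adjusted p = 0.178) and 0.24 in siGLP (0.060 to 0.42; limma adjusted p = 0.434), and neither passed. In siGLP the detoxifying hydrolase gene Ephx1 stood at 0.52, the thiamine transporter gene Slc19a2 at 0.49 and the stress gene Ier3 at 0.48, with limma adjusted p from 0.177 to 0.219. In siG9a Notch1, the receptor of the Notch pathway, stood at -0.58, Ckap2, a mitotic spindle protein, at -0.28 and Ier3 at 0.30. Their limma adjusted p ran from 0.241 to 0.289.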

How the data were processed

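RNA of 7 C2C12 samples was measured on 1 Affymetrix array each. The deposited table holds log2 values for 33649 probe sets, and RMA and Partek are the tools listed, per the submitters' processing notes. RMA corrects background, equalises the arrays' distributions and summarises probes, so differences of dim probe sets are compressed. The log2 scale was taken from the range of the deposited values. The authors' own test, scan dates and batches were not stated in these sources. The platform's annotation gave 1 symbol to 23521 probe sets, and symbols were updated through RefSeq gene numbers for 23328 of them. The probe set with the highest mean was kept, which left 22180 genes.

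Limma 3.58.1 in R 4.3.3 fitted 1 mean per group over all 7 arrays (lmFit and eBayes, 6.89 degrees of freedom), two-sided, with Benjamini-Hochberg adjustment over all genes. Code was tested on simulated data. Values per array are given for Mdm2, Mdm4 and the 6 genes with the smallest p in each comparison, and other genes of the list are summarised. From the wider lists of regulators and targets, up to 4 genes with the smallest p per comparison are named, with Cdkn1a and Ei24. The genes and lists were chosen with earlier results of these data known. Alternatives changed the filter, variance model, normalization, probe set, fitted groups, replicate block and arrays.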

Additional observations from a re-analysis of the deposited data

Results flagged for a closer look

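Zmat3 was higher in siGLP than in siG9a by 0.18 on the log2 scale. It drew attention because both siGLP arrays lay above both Control arrays while all 3 siG9a arrays lay below them. The gaps were narrow, with siGLP 1 at 7.42 and siG9a 3 at 7.37 beside Control arrays at 7.39 and 7.41. The share of all genes with this pattern was not counted. The difference itself had an unadjusted limma p of 0.0489 and a Benjamini-Hochberg adjusted p of 0.398, and it ranged from 0.098 to 0.26 when 1 array was left out.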

How the results depend on the processing

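No p53 pathway gene passed under any of the 16 alternatives, and the smallest limma adjusted p of the list under them was 0.0513, for Rrm2b in siG9a after dropping genes under the median level. A changed filter, variance model, set of fitted groups or probe set left the difference of each single gene as it was. So did dropping an array of the group not compared. The probe set settings could change nothing here, since each measured p53 gene had only 1 probe set of its own. Only normalization, the replicate block and dropping a compared array could move a difference. Of 352 values of single genes under alternatives, many of which could not change, 350 kept their direction, and the 2 that turned were both of Mdm4. Its difference was -0.0034 in siG9a without Control 2 and 0.0081 in siGLP without Control 1, over a range up to 0.067 in siG9a and down to -0.063 in siGLP without 1 array. Counts are given next in the order siG9a against Control, siGLP against Control and siGLP against siG9a. All genes passing numbered 6, 1 and 52, and 148, 21 and 350 after dropping genes under the median level, 100, 23 and 304 with trended, robust moderation, 0, 0 and 3 without moderation, and 0 in each with only the compared groups fitted. Quantile normalization gave 16 in the first. Leaving out 1 array gave 0, 0 to 1 and 0. The p53 genes at an unadjusted p under 0.05 numbered 3, 6 and 5, and 2 to 6, 1 to 8 and 3 to 6 without 1 array. In siG9a this count was 5 with trended moderation and 6 with only the compared groups fitted, and between the knockdowns it was 3 without moderation. The share of all genes at this mark was not counted under any alternative. A shift of the p53 count is therefore not a result about the p53 genes. Dropping 1 siGLP array gives the same siG9a minus Control values as fitting only siG9a and Control. The median of the p53 genes ranged over 0.016 to 0.083, 0.062 to 0.098 and -0.013 to 0.064 without 1 array, and with those dim genes dropped it was 0.099 in siGLP and 0.078 between the knockdowns. With the replicate number as a block, genes passing numbered 0 in each comparison and the p53 genes at an unadjusted p under 0.05 numbered 5, 7 and 3. Deviations of same-numbered arrays correlated at 0.10 to 0.17 across genes in 5 of 6 pairs and at 0.0047 in Control 2 with siG9a 2, against -0.17 to 0.15 for differently numbered arrays. These values are not independent, because the deviations of 2 arrays in a group mirror each other. Both pairs of Control with siGLP thus gave 0.10, and several differently numbered pairs repeat a same-numbered value with its sign turned. The correlations therefore cannot settle whether the numbers pair the arrays. With no label that ties the numbers to a shared culture, they were not taken to pair the arrays. The causes of these shifts were not tested.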
